A study of Mus musculus with 65 samples.

Results

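Transcripts of 8 subunit genes of the Kv1 and Kv7 potassium channels were examined in single HSD2 neurons of the mouse nucleus of the solitary tract (NTS), the brainstem nucleus that receives signals from the viscera. The genes were chosen by name: Kcna1, Kcna2, Kcna4 and Kcna6 for Kv1 alpha subunits, Kcnab1 and Kcnab2 for Kv beta subunits, and Kcnq3 and Kcnq5 for Kv7 subunits. All 8 were found among the 11875 genes used. HSD2 neurons make the enzyme that shields the mineralocorticoid receptor from glucocorticoids, and the title of the series concerns their pacemaker activity and sodium appetite.

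All 65 neurons came from male mice of mixed strain that carried Hsd11b2-Cre together with Ai9, a reporter of red tdTomato that Cre switches on. Of these, 33 came from mice on standard chow and 32 from mice on a low sodium diet, and no ages were used here. Red cells were picked by hand, so the cells are those in which the driver had been active at some time, and each became 1 library of polyA RNA. The extraction protocol names Arc-ME as the digested tissue, but the tissue field of every cell reads NTS and was the one used. The labels name no animal. Each diet is therefore 1 sample, the cells are not replicates of it, and no test between diets was made. Every SD below is the spread over cells.

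Kv1 channels are assembled from 4 alpha subunits, open near spike threshold and hold back repeated firing, mainly in axons and at the axon initial segment. Kv beta subunits bind the inner face of Kv1 channels, help them reach the membrane and in some forms speed their inactivation. Kv7 channels carry the M-current, a slow potassium current that does not inactivate and is closed when receptors coupled to Gq use up the membrane lipid PIP2.

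The 4 Kv1 alpha genes code for a pore whose selectivity filter is built from glycine, tyrosine and glycine, and the coding stretch around it is shown because it codes for the part that selects potassium and lets the 4 genes be compared. Each stretch holds 60 bases of the coding strand from GENCODE M21 transcripts (GRCm38), 5′ to 3′, with the codons of the glycine, tyrosine and glycine in capitals.
Kcna1: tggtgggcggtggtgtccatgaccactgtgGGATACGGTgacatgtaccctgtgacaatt
Kcna2: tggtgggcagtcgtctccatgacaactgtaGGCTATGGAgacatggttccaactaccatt
Kcna4: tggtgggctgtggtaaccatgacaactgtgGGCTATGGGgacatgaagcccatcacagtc
Kcna6: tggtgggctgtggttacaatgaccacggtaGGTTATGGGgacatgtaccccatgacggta

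The stretch of Kcna1 lies at chr6:126642207-126642266 on the minus strand in exon 1. That of Kcna2 lies at chr3:107105200-107105259 on the plus strand in exon 3. That of Kcna4 lies at chr2:107296471-107296530 on the plus strand in exon 2, and that of Kcna6 at chr6:126738626-126738685 on the minus strand in exon 1. Kcna1 and Kcna6 are neighbours on chromosome 6 (126640397 to 126646384 and 126708329 to 126740674). Kcnab1 lies on chromosome 3 (65109384 to 65378223, plus strand) and Kcnab2 on chromosome 4 (152390742 to 152477871, minus strand).

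Of these 60 bases, 42 to 49 were identical between pairs of Kv1 alpha genes. No long run of coding bases was shared within a family. Pairs of the 4 Kv1 alpha genes had 72.1% to 75.6% identical coding bases, and their longest shared runs were 17 to 31 bases. Kcnab1 and Kcnab2 had 76.9% identical bases and a longest shared run of 26 bases. Kcnq3 and Kcnq5 had 67.3% and 14 bases. An exception was Kcna6, for which 39.9% of the 50-base windows of its longest transcript also occurred in another gene, either Gm26673, which overlaps it on the opposite strand, or Kcna5. For Kcnq5 the share was 2.01% (with Gm26580), for Kcna2 0.581%, for Kcnq3 0.11%, and for the other 4 genes 0. Whether strand was used in counting is not given in the sources used here, so reads of Kcna6 and of its antisense partner cannot be told apart and the level of Kcna6 is uncertain. The exons of Kcnab1 and Kcnq5 also overlap a gene on the opposite strand, and those of Kcnab2 overlap Gm16334 on the same strand.

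The values are log2(CPM + 1), where CPM are scaled read counts. Chow cells held 50078 to 3244893 reads (median 602351) and low-sodium cells 50540 to 5319462 (median 694430), and 3 reads stood for 0.48 to 48.3 CPM. CPM sums per cell were 754874 to 1147326 in 56 cells and 1393471 to 2170050 in the other 9, all of them low sodium, so the diet differences of the 8 genes are also given without these 9. At least 3 of 9 measured neuronal markers exceeded 10 CPM in all 65 cells, and Hsd11b2 was found in all 65. Markers of other cells were measured for astrocytes (10), oligodendrocytes (5), their precursors (1) and vessels (7), and at least 3 of them exceeded 10 CPM in 38 cells (22 chow and 16 low sodium). Microglial markers are not analysed here.

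Of the 8 genes, Kcnab2 was found in every neuron, Kcna6 in most, Kcna1, Kcna2, Kcna4 and Kcnq5 in 36 to 42 cells, and Kcnab1 and Kcnq3 in a minority. A gene is called found where its value was above 0, and intervals are exact (Clopper-Pearson) 95% binomial intervals that cover counting error over cells only. Kcnab2 was found in 65 of 65 cells (94.5% to 100%) and Kcna6 in 56 (86.2%, 75.3% to 93.5%). Kcna2 was found in 42 cells (64.6%, 51.8% to 76.1%), Kcna1 in 41 (63.1%, 50.2% to 74.7%), Kcna4 in 39 (60.0%, 47.1% to 72.0%) and Kcnq5 in 36 (55.4%, 42.5% to 67.7%). The intervals of these 4 genes overlap. Kcnab1 was found in 25 cells (38.5%, 26.7% to 51.4%) and Kcnq3 in 16 (24.6%, 14.8% to 36.9%).

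These shares moved with depth. After every cell was thinned to 50000 reads, Kcnab2 was found in 95.4% of cells, Kcna6 in 66.2%, Kcna2 in 46.2%, Kcna1 in 44.6%, Kcnq5 in 36.9%, Kcna4 in 33.8%, Kcnab1 in 26.2% and Kcnq3 in 12.3%. Conversely, 22 of the 56 cells with usual CPM sums (10 chow and 12 low sodium) had at least 1000000 reads, and there 3 reads stood for at most 2.59 CPM. In these deeper cells Kcnab2 was found in 22, Kcna6 in 21, Kcna1 in 16, Kcna2 and Kcna4 in 14 each, Kcnq5 in 13, Kcnab1 in 9 and Kcnq3 in 1. Cells without Kcna1, Kcna2, Kcna4, Kcnab1 or Kcnq5 thus remained at this depth, where 3 reads stood for at most 2.43 CPM in the cells listed at 0 for these 5 genes.

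**Figure D1:**
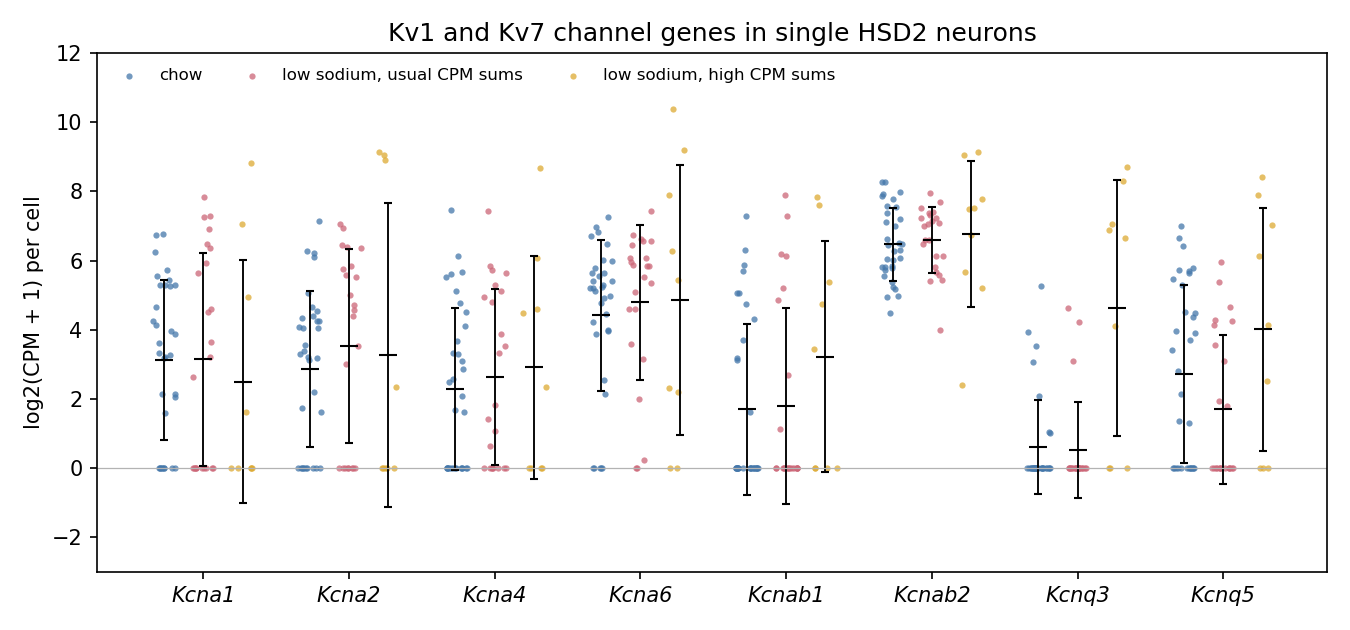
Each point is the log2(CPM + 1) of a gene in 1 cell (vertical axis), for 33 chow cells, 23 low-sodium cells with usual CPM sums and 9 low-sodium cells with high CPM sums; bars are the mean and SD over cells. Kcnab2 is above 0 in every cell, the other genes have many cells at 0, and the 5 highest Kcnq3 values are those of cells with high CPM sums.

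Kcna6, which encodes Kv1.6, was the most widely found of the 4 Kv1 alpha genes. In chow its log2(CPM + 1) ran from 0 through a median of 5.21 to 7.26, with a mean of 4.41 ± 2.19 (SD, 33 cells). In low sodium it ran from 0 through 5.67 to 10.38, with a mean of 4.81 ± 2.74 (SD, 32 cells). The chow range lay within that of low sodium, which reached further up. The top value belonged to low-sodium neuron 51, one of the 9 cells with high CPM sums, at 134 reads. In the low-sodium cells with usual CPM sums the highest value was 7.43.

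Kcna1, which encodes Kv1.1, the subunit mutated in episodic ataxia, ran in chow from 0 through a median of 3.32 to 6.77 on the log2 scale. In low sodium it ran from 0 through 2.13 to 8.82. The ranges overlapped, and the 3 highest by CPM were all low-sodium cells, neurons 45, 7 and 3, with 125, 151 and 255 reads. Means were 3.12 ± 2.32 in chow and 2.96 ± 3.17 in low sodium.

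Kcna2, which encodes Kv1.2, the usual partner of Kv1.1 in axonal channels, ran from 0 through 3.31 to 7.16 in chow. In low sodium it ran from 0 through 3.96 to 9.13. The ranges overlapped, and the 3 highest values were in neurons 49, 57 and 48, all among the 9 cells with high CPM sums, of which 5 were at 0. Means were 2.87 ± 2.25 in chow and 3.45 ± 3.25 in low sodium.

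Kcna4, which encodes Kv1.4, the Kv1 subunit that inactivates fast on its own, ran from 0 through 2.07 to 7.46 in chow. In low sodium it ran from 0 through 2.08 to 8.67. The medians were nearly equal, and the cells highest by CPM came from both diets. They were low-sodium neuron 51 (41 reads), chow neuron 1 (162 reads) and low-sodium neuron 8 (708 reads). Means were 2.29 ± 2.35 in chow and 2.71 ± 2.70 in low sodium.

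Kcnab2, which encodes Kv beta 2, the main beta subunit of brain, had the narrowest spread. In chow it ran from 4.48 through 6.29 to 8.28, with a mean of 6.47 ± 1.06, and in low sodium from 2.40 through 7.04 to 9.14, with a mean of 6.65 ± 1.34. All cells of both diets lay above 2 and the ranges overlapped. Kcnab1, which encodes Kv beta 1, a subunit that confers fast inactivation, had a median of 0 in both diets. Its highest values were 7.28 in chow and 7.90 in low sodium, the latter in neuron 18 with 1072 reads, and its means were 1.70 ± 2.46 and 2.20 ± 3.00.

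Kcnq5, which encodes Kv7.5, ran from 0 through 2.81 to 7.01 in chow and from 0 through 0.89 to 8.40 in low sodium. Means were 2.72 ± 2.57 and 2.35 ± 2.76, and the ranges overlapped. The 3 cells highest by CPM, neurons 57, 46 and 49, were all among the 9 with high CPM sums. Kcnq3, which encodes Kv7.3, a subunit of M-channels, had a median of 0 in both diets, with highest values of 5.26 in chow and 8.71 in low sodium and means of 0.60 ± 1.36 and 1.68 ± 2.91.

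Between genes, levels were compared as CPM per kb of the longest annotated transcript. On that scale Kcnab2 was highest with a mean of 32.3 ± 26.9 CPM per kb (SD, 65 cells), followed by Kcna6 at 12.7 ± 30.5, Kcna1 at 8.96 ± 17.4, Kcnab1 at 5.56 ± 12.3, Kcna4 at 5.03 ± 12.3, Kcna2 at 4.01 ± 9.61, Kcnq5 at 3.80 ± 8.06 and Kcnq3 at 1.59 ± 5.76. For all genes but Kcnab2 the SD over cells exceeded the mean, and neighbours in this order did not differ beyond it. Over the 56 cells with usual CPM sums, Kcna6 (7.78) and Kcna1 (7.67) were nearly equal, Kcna2 fell behind Kcnq5 (2.22 and 2.38), and Kcnq3 was at 0.186 CPM per kb. The place of Kcna2 also depended on the length used, because its longest transcript has 11582 bases and its coding sequence 1497. Per kb of coding sequence Kcna2 followed Kcnab2 and Kcna6 over all 65 cells, at 31.0 CPM per kb, but over the 56 cells it was at 17.2 and followed Kcna1 at 20.8.

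**Figure D2:**
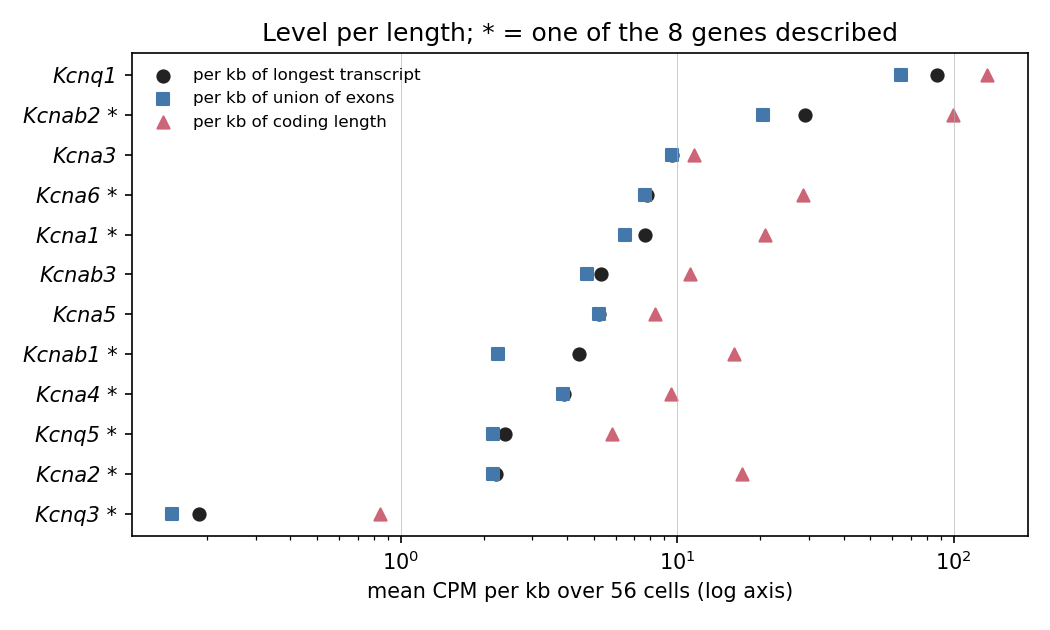
Mean CPM per kb (horizontal log axis) of the 8 genes, marked with a star, and of 4 other genes of the family, over the 56 cells with usual CPM sums, for 3 definitions of gene length. Kcnab2 is the highest of the 8 and Kcnq3 the lowest under each length, and Kcna2 moves most with the length used.

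Set within each cell, the 4 Kv1 alpha genes showed 1 leading transcript in most neurons, and which gene led differed from cell to cell. Kcna3 and Kcna5, which also encode Kv1 alpha subunits, were left out, so the lead is among these 4 only. Over all 65 cells Kcna3 had a mean of 16.8 CPM per kb of longest transcript and a median of 1.12. The values of Kcna6 were 12.7 and 6.53. Over the 56 cells with usual CPM sums the means were 9.57 for Kcna3 and 7.78 for Kcna6. Per kb of coding sequence the means over all 65 cells were 20.2 and 46.8. A ratio within a cell does not depend on the total by which its CPM were scaled. In the 64 cells with any of the 4, the highest had a median of 65.1% of their summed CPM per kb, at least 50% in 55 cells and at least 90% in 15 cells (4 chow and 11 low sodium, 5 of them with high CPM sums). Some of these shares rest on very few reads. Chow neurons 33 and 45 had 1 and 3 reads of Kcna4, and chow neuron 62 had 5 of Kcna1, with none of the other genes of the set. In such cells the leading gene is uncertain. Kcna6 was highest in 29 cells, Kcna1 in 22, Kcna4 in 7 and Kcna2 in 6. The median shares were 36.3% for Kcna6, 16.7% for Kcna1, 4.95% for Kcna2 and 3.53% for Kcna4.

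By diet, Kcna6 was highest in 16 chow and 13 low-sodium cells, Kcna1 in 11 and 11, Kcna4 in 5 and 2, and Kcna2 in 1 and 5. Of the 5 low-sodium cells led by Kcna2, 3 were among the 9 with high CPM sums. Without length correction Kcna2 led in 14 cells. All 4 Kv1 alpha genes were at 0 in 1 deep library, that of low-sodium neuron 17, with 1936353 reads. That cell also had 0 reads of Kcnab1, Kcnq3 and Kcnq5, and 109 reads of Kcnab2. There 3 reads stood for 1.36 CPM, but only 6048 genes were detected. The median was 8252 genes in the 23 low-sodium cells with usual CPM sums, so these 0 values do not show that the genes were absent.

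**Figure D3:**
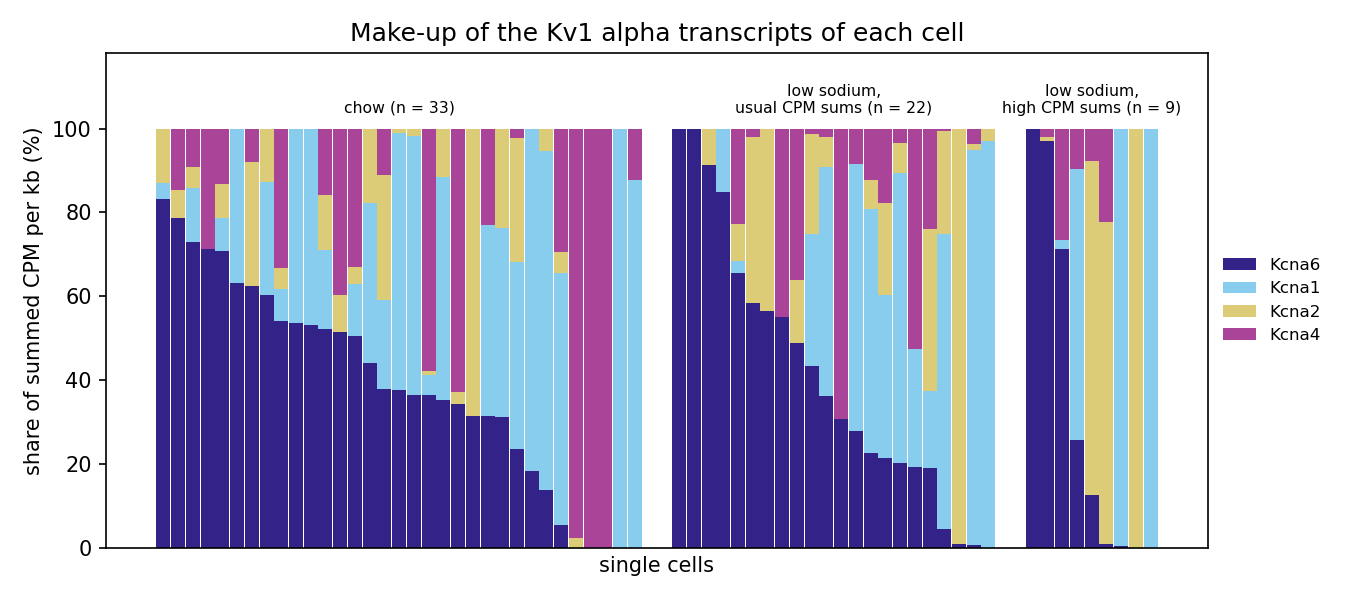
Each bar is 1 cell and shows the percent of the summed CPM per kb of Kcna6, Kcna1, Kcna2 and Kcna4 that each gene made up (vertical axis), with cells ordered by the share of Kcna6 within chow (33 cells), low sodium with usual CPM sums (22 cells) and low sodium with high CPM sums (9 cells). A single gene fills over 50% of most bars, and the gene differs between cells, though some bars rest on very few reads.

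The number of the 8 genes found in a cell ran from 1 to 8 with a median of 5, and that of the Kv1 alpha genes from 0 to 4 with a median of 3. All 4 Kv1 alpha genes were found in 18 cells. After thinning the medians were 4 and 2. Kcna1 and Kcna2, whose products form mixed channels in axons, were found together in 27 cells, alone in 14 and 15 cells, and neither in 9.

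Among beta subunits, Kcnab2 exceeded Kcnab1 per kb in 59 of 65 cells. With 1 CPM added to each, the median log2 ratio of Kcnab1 to Kcnab2 was -5.82, and with 10 CPM added it was -3.05. Kcnab1 was at 0 in 40 of the 65 cells, so the size of this median depends on the CPM added. Kcnab1 was the higher in 6 cells, 2 of them chow and 4 low sodium, of which 3 had high CPM sums. Of the 25 cells with Kcnab1, 23 also held Kcna6, 20 Kcna2, 19 Kcna4 and 16 Kcna1, beside 56, 42, 39 and 41 of all 65 cells.

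Among Kv7 genes, Kcnq5 exceeded Kcnq3 per kb in 33 cells, Kcnq3 exceeded Kcnq5 in 8, and 24 cells had neither. Both were found in 11 cells.

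The levels of the 8 genes followed each other weakly from cell to cell. Over the 56 cells with usual CPM sums, Spearman's rho of log2(CPM + 1) for the 28 pairs ran from -0.21 to 0.30 with a median of 0.073. These cells share library preparation and differ in depth, and many values are 0. The highest rho was that of Kcna2 with Kcnab1, at 0.30, or 0.21 with the number of detected genes held fixed. Next came Kcna6 with Kcnab2 at 0.28 and Kcnab2 with Kcnq5 at 0.25. The lowest were Kcna4 with Kcnq3 and with Kcnab2, both at -0.21. In sparse counts such values are no sign of a relation.

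**Figure D4:**
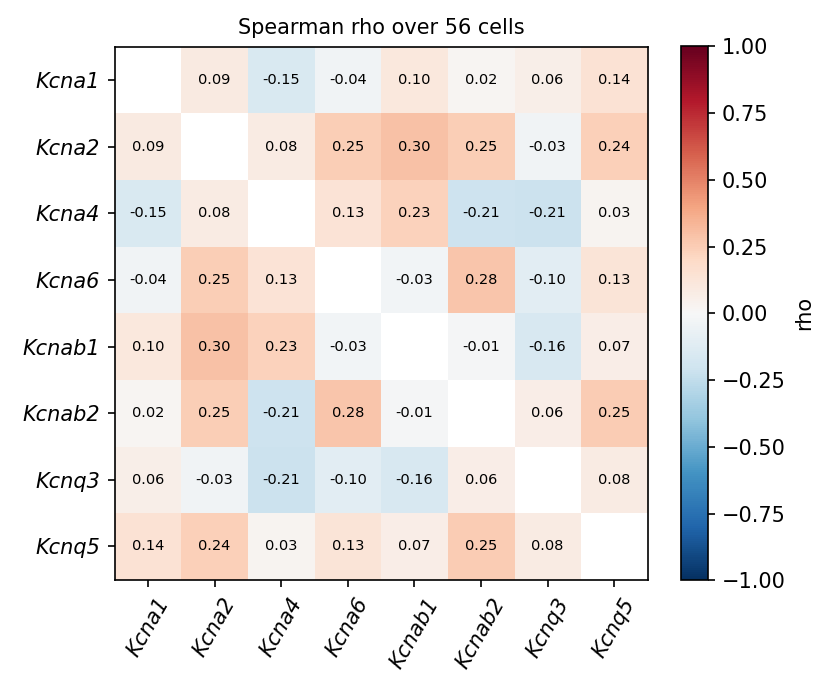
Spearman's rho of log2(CPM + 1) over the 56 cells with usual CPM sums for each of the 28 pairs of genes, coloured from -1 to 1. All values lie between -0.21 and 0.30.

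Genes whose pattern was most like that of each of the 8 were taken as those with the highest rho over the same 56 cells, among genes found in at least 33 cells. For Kcnq5 these were Galnt13 (rho 0.63), Slc7a14 (0.55) and Hrasls (0.51). For Kcnab1 they were Map7 (0.59), Ube2g1 (0.58) and Ythdc1 (0.51). For Kcna2 the first was Scn2a1, a sodium channel gene of axons (0.58), then Col4a3bp (0.55) and Zfp90 (0.53). For Kcna6 they were Herc2 (0.57), Hcn2, which encodes a pacemaker channel (0.52), and Noct (0.52). For Kcna4 they were Ufd1l (0.55), Gmps (0.50) and Mcm3ap (0.49), for Kcnab2 Bin1 (0.53), Cds2 (0.52) and Nacad (0.52), and for Kcna1 Rae1 (0.50), Srsf10 (0.50) and Nrg3 (0.48). A rho under 0.5 was called weak, which before rounding held for every gene named for Kcna1 and for Gmps and Mcm3ap. For Kcnq3 every rho was weak too, with Eno1 at 0.47, Pgam1 at 0.46 and Ccdc136 at 0.45. The 99th percentile over the 8492 or 8493 genes compared was 0.34 to 0.41 for the 8 genes.

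The diets were then compared by the difference of mean log2(CPM + 1), low sodium minus chow. Of the 8 genes, Kcnq3 was past a difference of 1, at 1.07, against 10.9% of the 10726 genes with a mean of at least 1 (3.93% at least 1 higher and 6.99% at least 1 lower). The other differences were 0.58 for Kcna2, 0.50 for Kcnab1, 0.42 for Kcna4, 0.39 for Kcna6, 0.18 for Kcnab2, -0.16 for Kcna1 and -0.37 for Kcnq5. All 8 were smaller than 1 SD over cells. The median over the 8 genes was 0.41, beside -0.12 over all genes. Other settings change how many of all genes are past 1. The share was 1.17% with a pseudocount of 10 CPM, 11.5% without cells with under 6000 genes, 19.4% by the log2 ratio of mean CPM plus 1, 20.5% by the median over cells and 26.8% without both the 9 cells and those with non-neuronal markers. The matching counts of the 8 genes ran from 0 to 5.

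With the 9 high-sum cells left out, the Kcnq3 difference was -0.085, and Kcnq5 became the 1 gene past 1, at -1.02, where 9.7% of all genes were past 1 and 6.73% at least 1 lower. The other differences were then 0.65 for Kcna2, 0.38 for Kcna6, 0.34 for Kcna4, 0.13 for Kcnab2, 0.10 for Kcnab1 and 0.021 for Kcna1. The median over the 8 genes was 0.12, beside -0.092 over all genes. The Kcnq3 difference between diets thus rested on these 9 cells.

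Depth and astrocyte markers also differed between the diets. The 23 low-sodium cells with usual CPM sums held a median of 1088899 reads, and chow cells 602351. With all cells thinned to 50000 reads and the 9 left out, Kcnq5 was at -1.67 and Kcna4 at 1.29, where 14.6% of all genes were past 1. After thinning 1 read stood for 20 CPM, so these differences depend largely on how many cells held the gene. Kcnq5 was then found in 4 of these 23 low-sodium cells and 15 of 33 chow cells, and Kcna4 in 11 and 8. Among the deeper cells alone, Kcnq5 was at -0.28 and Kcnab1 (1.78), Kcna4 (1.56) and Kcna2 (1.33) were past 1, where 27.0% of all genes were. Kcna2, Kcna4, Kcnab1 and Kcnab2 were higher in low sodium in all cells, without the 9 cells, and in both of these depth settings. Kcna1 and Kcna6 were not. In each of these settings 41.5% to 45.1% of all genes were higher, and the share higher in all of them was not counted. Without the 9 cells the differences of Kcnab1 (0.10) and Kcnab2 (0.13) were small. Kcna2, Kcna4 and Kcnab2 were lower in low sodium where cells with non-neuronal markers were left out, as given below.

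At least 3 astrocyte markers exceeded 10 CPM in 11 chow and 5 low-sodium cells. The 10 measured astrocyte markers summed to 0 to 2705 CPM in chow and 0 to 1068 CPM in low sodium. Of the 10, 4 were at least 1 lower in low sodium, where 6.99% of all genes were. At least 3 oligodendrocyte markers exceeded 10 CPM in 6 chow and 7 low-sodium cells, and at least 3 vessel markers in 3 of each diet. Of 5 oligodendrocyte markers 4 were higher in low sodium, and of 7 vessel markers 2 were, with none past 1. In the 11 chow and 16 low-sodium cells left after the 38 with markers of other cells were removed, the difference was -2.01 for Kcnq5 and -1.42 for Kcna2, whose sign had turned, where 25.8% of all genes were past 1. Kcnq3, at 1.42, was the other gene past 1 there. With the 9 high-sum cells left out as well, Kcnq3 was at 0.046, Kcnq5 at -2.85 and Kcna2 at -1.55, where 26.8% of all genes were past 1. With only the cells with markers left out, Kcna1 was at -0.80, Kcna4 at -0.62 and Kcnab2 at -0.15. The part of these markers, and of depth, in the diet differences was not tested.

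**Figure D5:**
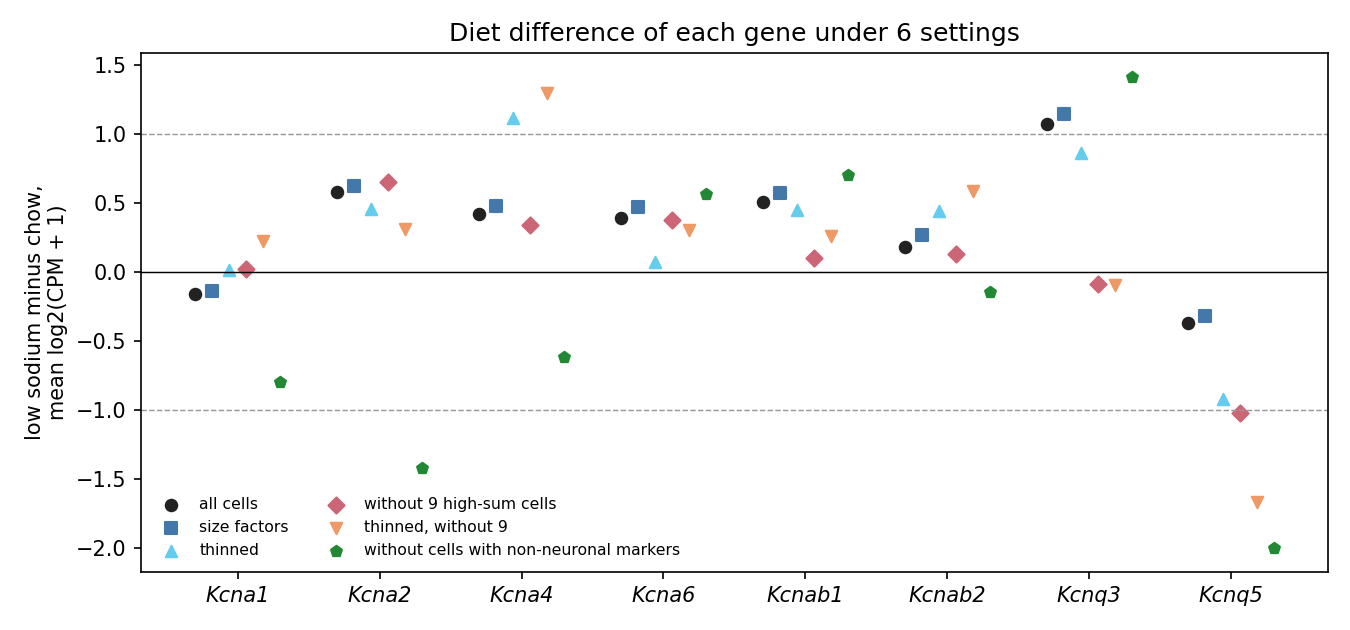
Difference of mean log2(CPM + 1), low sodium minus chow (vertical axis), for each gene under 6 settings, with dashed lines at 1 and -1. Kcnq3 is near 0 without the 9 cells with high CPM sums, Kcnq5 is below 0 under all 6, and Kcna2, Kcna4 and Kcnab2 change sign when cells with non-neuronal markers are left out.

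Kcnq3 was found more often in the 9 low-sodium cells with high CPM sums than in the other cells. It was found in 6 of these 9 cells, in 3 of the other 23 low-sodium cells and in 7 of the 33 chow cells. At least 10 reads were found in 5 of the 9, in 0 of the 23 and in 1 chow cell, neuron 3, which had 19 reads. The 3 highest CPM were those of neurons 45, 51 and 57, with 116, 32 and 31 reads, and neuron 50 had 56 reads in a deeper library. Mean log2(CPM + 1) was 4.64 ± 3.71 in the 9 cells and 0.52 ± 1.39 in the 23, a difference of 4.12, and the ranges overlapped because 3 of the 9 were at 0.

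Kcnq5 was also higher in these 9 cells, by 2.31. Kcnab1 was higher by 1.42, and the 4 Kv1 alpha genes and Kcnab2 differed by -0.65 to 0.28. Thus 3 of the 8 genes were at least 1 higher, where 20.6% of all genes were, and 43.0% were past 1 in either direction. The 4.12 of Kcnq3 was above that of 99.5% of the genes with a mean of at least 1 over all 65 cells. Kcnq3 met that limit, at 1.13, only through these 9 cells, since its mean over the other 56 was 0.57. Its rank among those genes is therefore no support for the difference. The 9 cells had 218943 to 697841 reads (median 454786), fewer than the 23 others (median 1088899), and summed CPM of the 9 neuronal markers were 9808 to 22975, against 3094 to 11701. At least 3 astrocyte markers exceeded 10 CPM in 0 of the 9 cells. Over all markers of other cells, at least 3 did so in 4 of the 9, among them neurons 45 and 57 but not 51. Markers of oligodendrocytes summed to as much as 12645.5 CPM among the 9 cells, but their medians were 98.8 in the 9 and 139 in the 23. Those of vessels summed to as much as 6110, with a median of 0 in both. At least 3 oligodendrocyte markers exceeded 10 CPM in 1 of the 9 cells, and at least 3 vessel markers in 1. The part of the scale of these cells, and of these markers, in the Kcnq3 difference was not tested.

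Of the other genes of the 2 families, 4 are described here and none of these was past a diet difference of 1. Kcnq1, which encodes Kv7.1, best known from heart and ear, was listed in 58 cells at a mean log2(CPM + 1) of 6.80 ± 3.00. It overlaps the imprinted antisense RNA Kcnq1ot1, which is not analysed here, and without strand the reads of the 2 cannot be told apart. Kcna3 was found in 35 cells (mean 2.49 ± 2.72), Kcna5 in 28 (1.87 ± 2.35) and Kcnab3 in 25 (1.72 ± 2.41). Their diet differences were -0.12 for Kcna3, -0.89 for Kcna5, -0.73 for Kcnab3 and 0.36 for Kcnq1, and without the 9 high-sum cells -0.51, -0.64, -0.73 and 0.17 in the same order. Kcna7, Kcna10 and the Kcne genes are not analysed here.

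Genes whose products hold or regulate these channels were also measured. Of 13 partners of Kv1 channels, all were measured. The highest by mean log2(CPM + 1), not corrected for length, were Cntnap2 (7.48, all 65 cells), Lgi3 (7.34) and Dlg2 (7.22). Cntnap2 encodes the axonal protein Caspr2, and Dlg2 encodes a scaffold. Cntn2 (1.22), Dlg2 (1.22) and Lgi1 (1.00) were at least 1 higher in low sodium, and Dlg3 differed by -1.23, against 3.93% of all genes at least 1 higher and 6.99% at least 1 lower. None of the 13 was past 1 without the 9 cells.

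Of 20 genes for the control of Kv7 channels, 17 were analysed and none was past 1 in either direction, with or without the 9 cells, against 10.9% and 9.7% of all genes. Gnaq and Gna11, which encode the G proteins that lead to PIP2 loss, were found in 65 and 64 cells at 6.69 and 6.33. The muscarinic receptor genes Chrm1, Chrm3 and Chrm5 are not analysed here. Of 7 genes that anchor channels at the axon initial segment, 6 were analysed. By mean log2(CPM + 1), not corrected for length, the highest were Sptbn1 (8.35), Sptan1 (8.30) and Ank3 (8.08), which encodes ankyrin G. None of the 6 was past a diet difference of 1 with or without the 9 cells.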

How the data were processed

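Each of 65 hand-picked neurons was 1 Smart-Seq2 and Nextera XT library, per the labels. The authors deposited log2(CPM + 1) per gene and cell. Per the submitters' processing notes, reads were handled with featureCounts 1.4.6, SAMtools 0.1.19, Picard 2.5.0, HISAT2 2.0.5 and bcl2fastq (builds GRCm38 and mm10). Settings, annotation, strand and scaling total were not given in the sources used here.

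CPM were obtained by undoing the log2. In each cell, 100% of values up to 20 times the step were whole multiples of it (tolerance 0.1 steps), and a step was counted as 1 read. No molecular identifiers are named, so intervals cover counting error only. Of 12015 lines, 140 with a shared or numeric name were left out, which left 11875 genes. The limit of 1200000 on CPM sums, which separates 9 cells, was chosen with the values known.

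Diet differences are means of log2(CPM + 1) with a pseudocount of 1 CPM, which understates changes of low genes, and a difference of 1 was used for counts because each diet is 1 sample. Lengths and sequences came from GENCODE M21. Promoter sequences were not used because the data do not bear on them. Alternatives were pseudocounts of 10 and 0.1 CPM, size factors, thinning to 50000 reads, log2 ratios of mean CPM, medians, other lengths, and leaving out cells. The scripts were tested on simulated data. Python 3.11.15, numpy 2.4.6, pandas 2.3.3, scipy 1.17.1 and Biopython 1.88 were used.

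The genes and lists were chosen with earlier results of these data known. Named were the 8 genes, other family members, the 3 highest and those past 1 of the other lists, and the 3 genes most like each of the 8. Gnaq, Gna11 and the astrocyte and identity markers are outside that rule and were picked with their values in view. Some genes and sequences under that rule are not reported here.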

Additional observations from a re-analysis of the deposited data

How the results depend on the processing

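The 1 gene past a diet difference of 1, Kcnq3, turned sign without the 9 cells with high CPM sums, at -0.085, and there also with size factors (-0.090), with thinning (-0.092) and in cells with at least 1000000 reads (-0.10), the last 3 chosen after seeing the data. Genes not past 1 turned sign too, Kcna1 in 7 of 15 settings (-1.19 to 1.17), Kcna2 (-1.55 to 1.93), Kcna4 (-0.62 to 1.56) and Kcnab2 (-0.19 to 0.74) in 2 each, and Kcna6 (-0.31 to 1.39) and Kcnq5 (-2.85 to 0.48) in 1 each. Leaving out single cells moved the Kcnq3 difference from 0.85, without low-sodium neuron 45, to 1.22. The number of the 8 genes past 1, which was 1, became 0 with a pseudocount of 10 CPM or without cells with under 6000 genes, 2 by the median over cells, 5 by the log2 ratio of mean CPM plus 1, and 3 without cells with non-neuronal markers. Among settings chosen after seeing the data it was 2 with thinning and without the 9 cells, 2 without the 9 cells and those with markers, and 3 in cells with at least 1000000 reads and without the 9. The median over the 8 genes, 0.41, was 1.18 by the log2 ratio of mean CPM plus 1, -0.38 without cells with markers and -0.34 without these and the 9 cells. Kcna2 led the 4 Kv1 alpha genes in 13 cells by coding length, 14 without length and 3 without the 9 cells, against 6. No paired analysis was possible because neuron numbers only name cells and each diet is 1 sample. Depth limits what can be said of a gene at 0, since 3 reads stood for up to 48.3 CPM.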

Other observations

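Other voltage-gated potassium channel genes gave a wider view of the same neurons. All 4 Kv3 genes, whose channels allow fast spiking, were measured, and Kcnc2 (mean log2(CPM + 1) of 7.65, 64 cells), Kcnc4 (6.61, 63 cells) and Kcnc1 (6.45, 62 cells) were more widely found than any of the Kv1 alpha genes. Kcnc1 was 1.32 higher in low sodium, and 1.07 higher without the 9 cells with high CPM sums. Of 9 genes of A-type channels, which delay the first spike, Dpp6 (7.92), Kcnip1 (7.67) and Kcnip4 (6.08) were the highest by this mean, not corrected for length. Kcnd2 differed between diets by -1.09 (-0.58 without the 9 cells) and Kcnip3, found in 16 cells, by -1.31 (-1.27). Of 11 genes of Kv2 channels and their silent partners, 6 were measured. Kcnv1, found in 14 cells, differed by -1.28 (-1.11), and Kcnf1, found in 28 cells, by 0.63 (1.18). Against these counts stand the 10.9% of all genes past 1 over all cells and the 9.7% without the 9 cells. None of these differences has a replicate check.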
